A study of Mus musculus with 18 samples.

Results

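The 47 genes described here are cell cycle genes, a set that runs from the cyclins and kinases of G1, through the enzymes that copy DNA and make its building blocks, to the kinases, checkpoint proteins, motors and chromosome proteins of mitosis. They were taken by gene symbol from a table of read counts for 17941 symbols, and all 47 were found there. Of these, 36 had enough counts to be tested, among 10104 tested genes of the whole table. The other 11 (Ccne1, Mcm2, Mcm3, Mcm6, Tyms, Bub1, Bub1b, Cenpe, Cenpf, Kif2c and Tpx2) are described by their counts alone.

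The cells were neutrophils from the spleens of untreated female NZBWF1/J mice, a hybrid strain used as a model of lupus, at 14, 20 or 26 weeks of age, and each age is represented by 6 libraries that the sample titles call biological replicates. The cells were sorted straight from the spleen as single, DAPI-negative cells that carried Ly6b, CD11b and Ly6G with intermediate Ly6C. All 3 groups shared strain, sex, tissue and sort gate, and age, which the study's design text describes as stages of disease, was the only label that differed. No mice of another strain entered the comparisons, so age and stage of disease cannot be told apart. Libraries were bulk, so a change in the number of cells of a type and a change in RNA per cell cannot be told apart.

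Cyclins bind and switch on cyclin-dependent kinases, and the pairs act in turn: cyclin D with Cdk4 or Cdk6 in G1, cyclin E and cyclin A with Cdk2 around S phase, and cyclin B with Cdk1 in mitosis. Genes of S phase are largely switched on by E2F factors. Many mitotic genes are held off in resting cells through CHR elements near their start sites, where CCAAT elements are also found. Mature neutrophils do not divide. Their precursors do, mainly in the bone marrow and also in the spleen, and a few of the 47 genes, such as the cyclin D genes, H2afz and Hmgb2, are also used by cells that do not divide.

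Promoter sequence is shown for the 4 called members with the smallest p-values that have an entry in the RefSeq promoter table (H2afz, Hmgb2, Kif23 and Ccnd3), and for Top2a, which was chosen after its values were seen because no library at 20 weeks held a count of it. Each is the 250 bases before a RefSeq start site on GRCm38.p6, read 5′ to 3′ along the gene. The windows are chr3:137864237-137864486 (plus strand) for H2afz, chr8:57511593-57511842 (plus strand) for Hmgb2, chr11:99024190-99024439 (minus strand) for Top2a, chr9:61946800-61947049 (minus strand) for Kif23 and chr17:47504801-47505050 (plus strand) for Ccnd3. Capitals mark matches to the CHR letters TTTGAA, to CCAAT, or to either of the E2F letters TTCCCGC and TTGGCGC, searched on both strands.
H2afz: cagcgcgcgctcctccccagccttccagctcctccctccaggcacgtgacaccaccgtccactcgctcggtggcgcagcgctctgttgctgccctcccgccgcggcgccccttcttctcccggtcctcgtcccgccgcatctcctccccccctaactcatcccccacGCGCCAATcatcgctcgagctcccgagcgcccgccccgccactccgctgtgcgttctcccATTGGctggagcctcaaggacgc
Hmgb2: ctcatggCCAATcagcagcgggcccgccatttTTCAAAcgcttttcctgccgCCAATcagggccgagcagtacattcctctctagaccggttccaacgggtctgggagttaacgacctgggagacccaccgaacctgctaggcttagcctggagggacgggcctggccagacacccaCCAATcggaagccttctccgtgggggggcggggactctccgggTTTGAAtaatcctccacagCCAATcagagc
Top2a: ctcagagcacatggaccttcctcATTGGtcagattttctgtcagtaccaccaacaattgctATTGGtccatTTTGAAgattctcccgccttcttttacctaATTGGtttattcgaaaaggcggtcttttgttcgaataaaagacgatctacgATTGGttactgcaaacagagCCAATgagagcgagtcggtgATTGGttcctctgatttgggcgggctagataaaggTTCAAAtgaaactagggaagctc
Kif23: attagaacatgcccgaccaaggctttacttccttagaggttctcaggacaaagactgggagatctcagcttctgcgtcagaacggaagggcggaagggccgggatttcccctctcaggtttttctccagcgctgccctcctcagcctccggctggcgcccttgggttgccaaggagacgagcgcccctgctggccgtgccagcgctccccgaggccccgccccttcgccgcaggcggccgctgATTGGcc
Ccnd3: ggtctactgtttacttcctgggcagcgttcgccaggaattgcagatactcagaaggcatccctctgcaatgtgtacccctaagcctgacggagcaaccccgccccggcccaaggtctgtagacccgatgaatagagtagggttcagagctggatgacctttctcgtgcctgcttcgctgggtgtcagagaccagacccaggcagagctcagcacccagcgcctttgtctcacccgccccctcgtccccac

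The Top2a window held 2 CHR and 6 CCAAT matches, and the Hmgb2 window held 2 and 4. In the H2afz window 1 E2F match overlapped 1 of 2 CCAAT matches, and no CHR match was found. Kif23 had a single CCAAT match and the Ccnd3 window had no match, although a second Ccnd3 start site had 1 CCAAT match. Over the 40 members with an entry (43 windows), CCAAT was found in 81.4% of windows, against 35.4% of the windows of protein-coding genes. CHR was found in 27.9% of member windows, against 14.5%, and an E2F match in 23.3%, against 7.20%. Members with mitotic roles (27 windows) held CHR in 40.7% and E2F letters in 14.8% of windows, and members with G1 and S phase roles (16 windows) held them in 6.25% and 37.5%. These matches describe letters and are not measured sites.

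Library totals ran from 5546624 to 17256379 counts, with the smallest and the largest both at 26 weeks (replicates 5 and 3). Between 8119 and 13164 symbols had a count in a library, and the library with the fewest was 20-week replicate 3. All 14 neutrophil identity genes on a marker list were tested, and their summed level was 146665, 178082 and 209922 CPM at 14 weeks, 51996, 85746 and 125016 CPM at 20 weeks and 163307, 269836 and 331164 CPM at 26 weeks (lowest, median and highest library). The sum at 20 weeks was below that of every other library. Single genes of the list went both ways: 1 was higher (Csf3r, median 1869 CPM at 14 weeks and 4118 CPM at 20 weeks) and 10 lower at 20 against 14 weeks, 6 higher and 4 lower at 26 against 14 weeks, and 9 higher and 1 lower at 26 against 20 weeks. Summed B cell genes reached their highest median at 20 weeks (185, 919 and 1858 CPM, against 47.4, 104 and 181 at 14 weeks and 68.8, 129 and 268 at 26 weeks). Of the 4 tested genes of that list only Ighm was called, higher at 20 than at 14 weeks (adjusted p = 0.00120) and lower at 26 than at 20 weeks (adjusted p = 0.00194). The part of these shifts in the results below was not tested, and levels are given as CPM, counts scaled to a common library size after TMM scaling, always in the order lowest, median and highest of 6 libraries.

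More of the 47 genes were present at 26 weeks than at either younger age. Members with at least 1 count numbered 17, 25 and 39 (lowest, median and highest library) at 14 weeks, 14, 25.5 and 30 at 20 weeks, and 37, 40.5 and 46 at 26 weeks. The 26-week libraries thus stood above all others except 14-week replicate 6, whose 39 members lay within their range. Brought down to the smallest library total, the medians were 23.4, 25 and 40.3 members, and the smallest library of all, 26-week replicate 5, still held 37. For all symbols the medians at that total were 11136, 10613 and 11872. In all 6 libraries of an age, 13 members had a count at 14 weeks, 13 at 20 weeks and 35 at 26 weeks. Of all symbols 48.0%, 37.9% and 50.8% did so, lowest at 20 and highest at 26 weeks. Of the 47 members, 19 had a count in at least 3 more libraries at 26 than at 20 weeks, where 7.64% of all symbols did so, and 19 also between 14 and 26 weeks, where 4.72% of all symbols did. Between 14 and 20 weeks 1 member gained that many libraries (1.64% of all symbols) and 1 member, Top2a, lost 3 (4.31% of all symbols). At 26 weeks 0 members had lost that many against 14 weeks (1.09% of all symbols) or 20 weeks (0.87%).

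**Figure D1:**
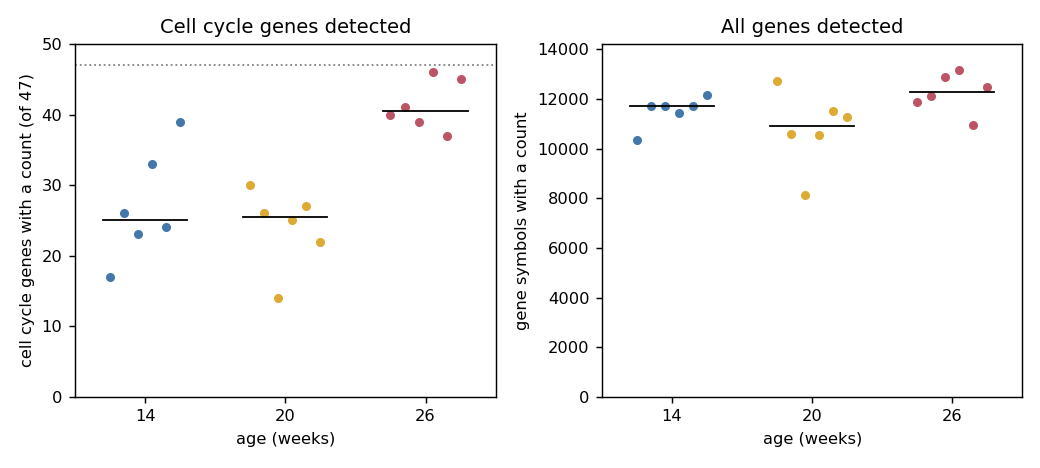
Number of the 47 cell cycle genes (left) and of all gene symbols (right) with at least 1 count in each library, by age in weeks; each point is 1 library, bars are medians and the dotted line marks 47. Members ran from 37 to 46 at 26 weeks against 14 to 30 at 20 weeks, while the counts of all genes overlapped between the ages.

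With edgeR, 5 of the 36 tested members changed between 14 and 20 weeks, 2 higher and 3 lower, where 10.2% of all tested genes were called (4.93% higher and 5.27% lower). Between 14 and 26 weeks 8 members were higher and 0 lower, where 11% of all genes were called (5.45% higher and 5.54% lower). Between 20 and 26 weeks 11 were higher and 1 lower, where 16% of all genes were called (8.03% higher and 7.98% lower). An unadjusted p under 0.05, in either direction, was reached by 14, 16 and 21 members in the 3 pairs of ages in that order, where 23%, 23.4% and 28.9% of all genes did. The 3 comparisons share libraries, so their values are set side by side and not counted as independent. A test of any change with age called 17 of 36 members, where 23% of all genes were called. Of the 18 members called between some pair of ages, 11 were called in 1 pair, 7 in 2 pairs and 0 in all 3.

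Counts of called members were read with the filter in mind, since 17 of the 36 passed it only through the 26-week libraries, where they are high. These were Aurkb, Birc5, Ccna2, Ccnb1, Cdk1, Cks1b, Kif11, Kif20a, Mcm5, Mcm7, Nusap1, Plk1, Prc1, Rrm1, Rrm2, Top2a and Ube2c, and their higher level at 26 weeks, with its test, is conditioned on that choice wherever it is given below. The 19 that pass on the 14- and 20-week libraries alone gave 6 higher and 0 lower calls at 26 against 14 weeks (5.67% of all genes passing in that way were higher), where 6.05% were lower, with a median log2 change of 1.26 beside -0.01 for those genes. At 26 against 20 weeks they gave 3 higher and 1 lower (8.18% higher and 8.71% lower among all such genes), with a median of 0.77 beside 0.01. At 20 against 14 weeks they gave 2 higher and 2 lower (5.17% and 5.44%), with a median of 0.55 beside -0.02.

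**Figure D2:**
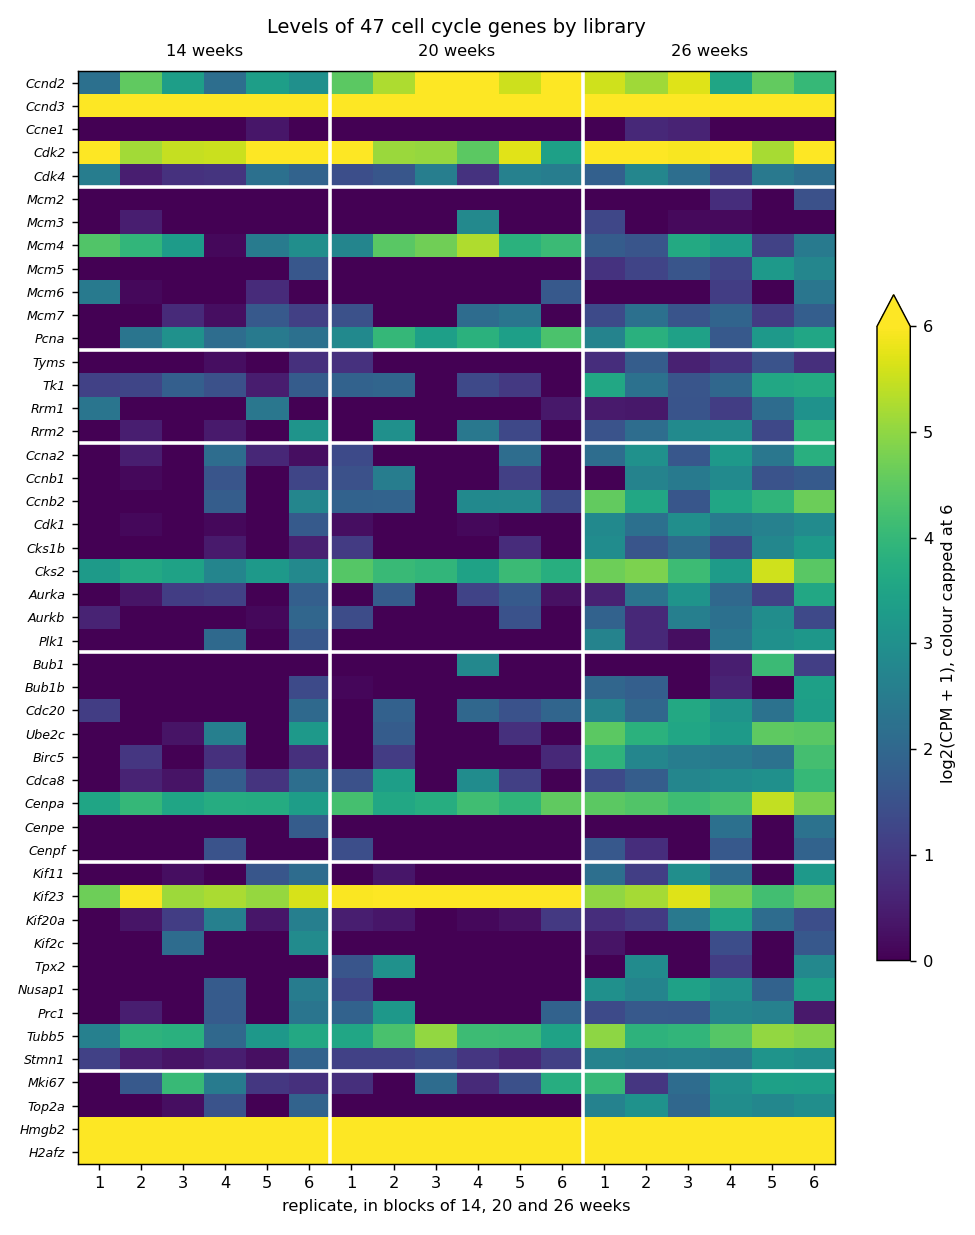
Levels of the 47 members in each of the 18 libraries as log2(CPM + 1), with the colour capped at 6; rows are genes grouped by role (white lines) and columns are replicates within each age. Dark cells (no or few counts) fill much of the 14- and 20-week blocks for the mitotic genes and are sparse at 26 weeks, while Ccnd3, Hmgb2 and H2afz sit at the cap throughout.

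The summed CPM of the members was carried by few genes. Ccnd3, Hmgb2 and H2afz together held 90.3 to 94.4% of it at 14 weeks, 80.9 to 87.8% at 20 weeks and 84.3 to 87.0% at 26 weeks. Per kilobase of exon, the median order at 14 weeks was Hmgb2 (204 CPM per kb), Ccnd3 (169) and H2afz (67.4), and at 26 weeks it was Hmgb2 (274), H2afz (180.1) and Ccnd3 (136). Cks2 came next at each age, at 12.2, 21.7 and 32.9 CPM per kb. The mitotic genes proper were far lower, so that results on them rest on few reads per age.

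Among the cyclins and kinases of G1, both cyclin D genes changed at 20 against 14 weeks, in opposite directions, where 10.2% of all tested genes were called. Ccnd3 (chromosome 17, 47505051 to 47599691, plus strand, GRCm38), a D-type cyclin that pairs with Cdk4 and Cdk6, stood at 1327, 1482 and 1946 CPM at 14 weeks, 708, 931 and 1169.7 CPM at 20 weeks and 1061, 1192 and 1391 CPM at 26 weeks. All 6 libraries at 20 weeks lay below all 6 at 14 weeks, and the 26-week libraries overlapped both. Its fitted log2 change at 20 against 14 weeks was -0.71 ± 0.14 (SE), adjusted p = 0.00333, and those of the other pairs did not pass (-0.35 ± 0.14 (SE), adjusted p = 0.130, against 14 weeks). Reads of Ccnd3 overlap exons of Bysl on the other strand, and it is not known whether the counting used strand. In GENCODE M21, 14 of the 47 members share between 34 and 1271 exon bases with a gene on the other strand (Ccnd2, Ccnd3, Cdk2, Cdk4, Mcm7, Tk1, Ccna2, Plk1, Cdc20, Ube2c, Cdca8, Kif20a, Nusap1 and Prc1), and reads of such a neighbour cannot be told apart in them.

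Ccnd2 (chromosome 6, 127125162 to 127152193, minus strand), another D-type cyclin, stood at 3.52, 8.12 and 22.0 CPM at 14 weeks, 21.5, 61.6 and 94.1 CPM at 20 weeks and 10.5, 28.6 and 51.5 CPM at 26 weeks. The 14- and 20-week ranges met only at their ends, with 14-week replicate 2 above the lowest 20-week library, and the 26-week libraries overlapped both. Ccnd2 rose at 20 against 14 weeks by a fitted log2 change of 2.74 ± 0.50 (SE), adjusted p = 0.00206. At 26 against 14 weeks the change was 1.72 ± 0.49 (SE), adjusted p = 0.0275, a call lost when any 1 of 14-week replicates 1, 3, 4, 5 and 6 or 26-week replicates 1, 2 and 3 was left out (highest adjusted p 0.0701). Short genes of GENCODE M21, Gm43126 and 9330179D12Rik, overlap Ccnd2 exons on the other strand.

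The kinases of this group were not called in any pair. Cdk2, the partner of cyclins E and A, stood at 34.7, 56.5 and 70.9 CPM at 14 weeks, 9.64, 32.7 and 69.4 CPM at 20 weeks and 36.2, 72.9 and 84.4 CPM at 26 weeks, with overlapping ranges and adjusted p from 0.0823 (26 against 20 weeks) to 0.692. Cdk4, the G1 kinase, was low throughout, at 0.427, 1.81 and 4.79 CPM at 14 weeks, 0.839, 3.43 and 5.22 CPM at 20 weeks and 1.35, 3.48 and 5.73 CPM at 26 weeks. Ccne1, the cyclin of S phase entry, was not tested, with 3, 0 and 15 counts over the 6 libraries at 14, 20 and 26 weeks.

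The replication genes, which unwind DNA (the Mcm helicase) and clamp the polymerase to it (Pcna), gave 1 call among 4 tested. It was a rise at 26 against 20 weeks, where 8.03% of all tested genes were higher. Mcm5, a helicase subunit, had 24 counts at 14 weeks, all in replicate 6, 0 counts at 20 weeks and 162 counts at 26 weeks, where the libraries stood at 0.829, 1.67 and 8.38 CPM. Every 26-week library was above every 20-week library, the level was at least 60.9-fold higher (a bound from 3 counts over the 6 libraries of the age at 0, which covers counting error only), and adjusted p was 0.0113. Against 14 weeks Mcm5 was not called (adjusted p = 0.220).

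The other tested helicase subunits were not called. Mcm4 stood at 0.0858, 7.86 and 19.8 CPM at 14 weeks, 5.59, 18.7 and 37.7 CPM at 20 weeks and 1.26, 3.42 and 11.6 CPM at 26 weeks, so its highest median was at 20 weeks (adjusted p = 0.0834 for 26 against 20 weeks). Mcm7 had 47, 99 and 137 counts, in 4, 3 and 6 libraries. Mcm2, Mcm3 and Mcm6, which were not tested, had a count in 2, 3 and 2 of the 26-week libraries. Pcna stood at 0, 3.82 and 7.25 CPM at 14 weeks, 6.25, 11.4 and 18.6 CPM at 20 weeks and 2.18, 9.12 and 12.9 CPM at 26 weeks, with the highest median at 20 weeks and no call (adjusted p = 0.128 for 20 against 14 weeks). The summed level of the 7 replication genes was 3.69, 15.3 and 24.2 CPM at 14 weeks, 13.6, 35.2 and 60.4 CPM at 20 weeks and 11.6, 19.5 and 29.3 CPM at 26 weeks, with overlapping ranges.

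Enzymes that make deoxynucleotides were seen in more libraries at 26 weeks, and 1 of 3 tested passed. It was higher at 26 than at 20 weeks, where 8.03% of all tested genes were. Rrm1, the large subunit of ribonucleotide reductase, had 83, 3 and 136 counts, in 2, 1 and 6 libraries. At 26 weeks its level was 51.1-fold higher by summed CPM (exact 95% counting interval 17.1 to 251) than at 20 weeks, adjusted p = 0.0457, and the lowest 26-week library (0.313 CPM) barely cleared the highest 20-week library (0.301 CPM). This call was lost in 13 of 18 fits that each left out 1 library (highest adjusted p 0.110), and was kept only without 14-week replicates 2, 3, 4 or 6 or 20-week replicate 6. It was also lost with limma-voom (adjusted p = 0.0906). Rrm2, the small subunit, had a count in 3, 3 and 6 libraries and was not called. Tk1, thymidine kinase, stood at 0.385, 1.58 and 2.53 CPM at 14 weeks, 0, 1.24 and 2.85 CPM at 20 weeks and 1.98, 7.43 and 11.8 CPM at 26 weeks (adjusted p = 0.0936 for 26 against 20 weeks). Tyms, thymidylate synthase, had 11, 10 and 61 counts, and all 6 libraries at 26 weeks held some. The 4 genes summed to 1.79, 3.57 and 10.7 CPM at 14 weeks, 0, 3.00 and 9.88 CPM at 20 weeks and 9.91, 12.9 and 33.4 CPM at 26 weeks, and all 4 were present in every 26-week library.

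**Figure D3:**
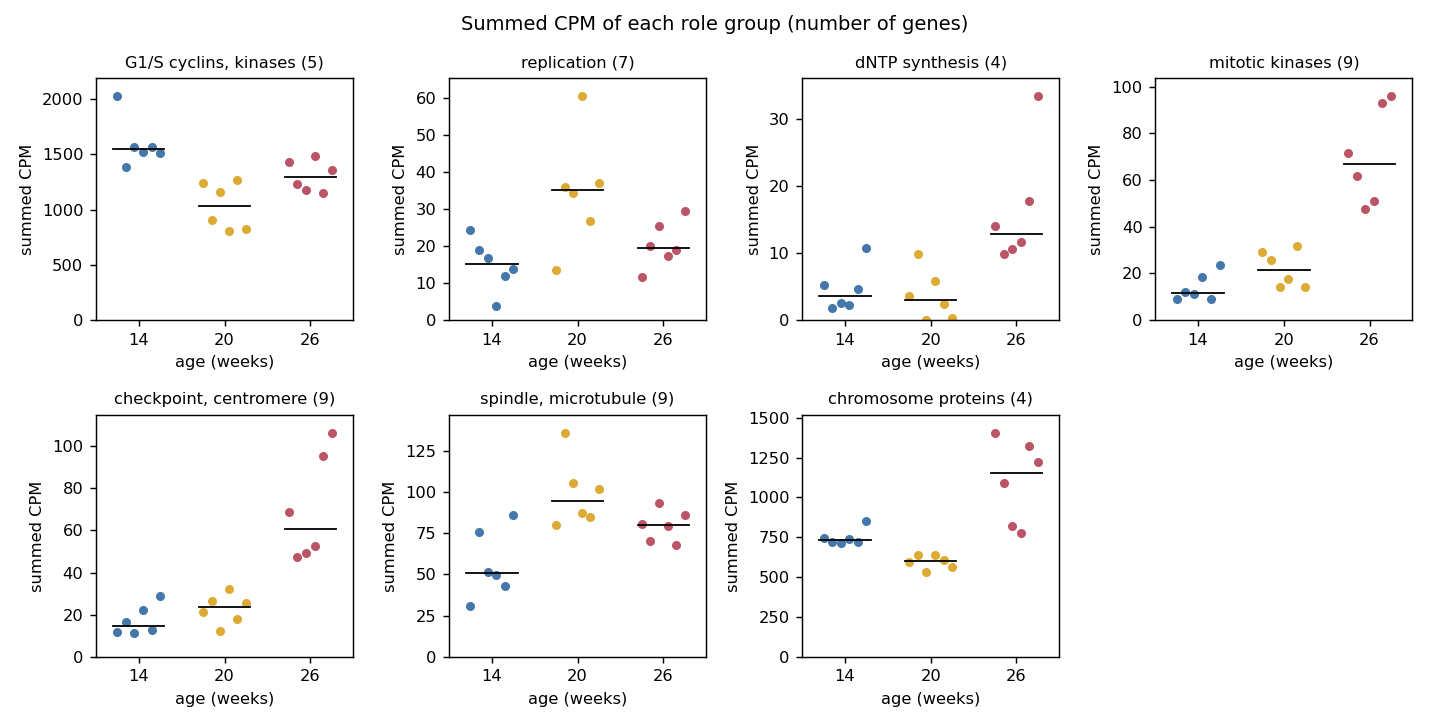
Summed CPM of the members of each of 7 role groups in each library by age in weeks; points are libraries, bars are medians, the number of genes is in brackets and each panel has its own linear axis from 0. The mitotic kinase and checkpoint panels show all 26-week libraries above all younger ones, while the replication and spindle panels have their highest medians at 20 weeks.

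The cyclins and kinases of mitosis were higher at 26 weeks as a summed level, 8.94, 11.6 and 23.7 CPM at 14 weeks, 14.4, 21.6 and 31.6 CPM at 20 weeks and 47.7, 66.7 and 95.9 CPM at 26 weeks, with all 6 libraries above the 12 younger ones, although only 4 of the 9 genes were called in some pair. Of the 9, 2 were higher at 26 than at 14 weeks and 2 at 26 than at 20 weeks, where 5.45% and 8.03% of all tested genes were. Cdk1 (chromosome 10, 69335146 to 69352938, minus strand), the mitotic kinase itself, stood at 0, 0.0427 and 2.25 CPM at 14 weeks, 0, 0 and 0.164 CPM at 20 weeks and 3.65, 5.70 and 6.75 CPM at 26 weeks. Only 14-week replicate 6 came near the 26-week range, and all 26-week libraries lay above all others. Cdk1 was 126-fold higher by summed CPM (exact 95% counting interval 42.7 to 614) at 26 than at 20 weeks, adjusted p = 0.00440, while the change against 14 weeks did not pass (adjusted p = 0.0634). Cdk1, Plk1 and Cks1b entered the tests only through the 26-week libraries. Without 14-week replicate 6, Cdk1 was also called at 26 against 14 weeks.

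Plk1, the kinase that drives entry into and exit from mitosis, had 62 counts at 14 weeks in 2 libraries (replicates 4 and 6), 0 at 20 weeks and 204 at 26 weeks. Its 26-week libraries stood at 0.170, 4.75 and 8.08 CPM, all above 0, the level was at least 76.7-fold higher than at 20 weeks, and adjusted p was 0.0114. Cks1b and Cks2 are small proteins that bind Cdk1. Cks1b stood at 0, 0 and 0.433 CPM at 14 weeks, 0, 0 and 1.07 CPM at 20 weeks and 1.45, 4.55 and 8.29 CPM at 26 weeks, with the 26-week libraries above all others. It rose against 14 weeks by a log2 change of 5.00 ± 1.46 (SE), adjusted p = 0.0325, a call lost without any 1 of 14-week replicates 1 to 5 or 26-week replicates 1, 2, 5 and 6 (highest adjusted p 0.0739).

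Cks2, the most abundant gene of this group per kilobase, stood at 5.66, 8.45 and 11.3 CPM at 14 weeks, 9.98, 15.0 and 20.2 CPM at 20 weeks and 8.81, 22.7 and 46.7 CPM at 26 weeks. Its 14- and 26-week ranges overlapped in the single lowest 26-week library, and the log2 change between them was 1.53 ± 0.35 (SE), adjusted p = 0.00872, a call that held with any 1 library left out. Cyclins A and B were not called in any pair. Ccnb2, a cyclin B, stood at 0, 0 and 5.80 CPM at 14 weeks, 0, 2.75 and 6.16 CPM at 20 weeks and 2.04, 12.7 and 24.3 CPM at 26 weeks (adjusted p = 0.101 against 14 weeks). Ccna2 had 53, 54 and 358 counts in 4, 2 and 6 libraries, and Ccnb1 had 40, 100 and 223 counts in 3, 3 and 5. The Aurora kinases, which act on the spindle and the centromere, had counts in all 6 libraries at 26 weeks, with medians of 3.54 CPM (Aurka) and 3.18 CPM (Aurkb), and were not called.

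Checkpoint, ubiquitin ligase and centromere genes showed the same order of summed levels, 11.1, 14.6 and 28.7 CPM at 14 weeks, 12.4, 23.6 and 32.4 CPM at 20 weeks and 47.2, 60.6 and 106 CPM at 26 weeks, again with all 26-week libraries on top. Ube2c, the ubiquitin-conjugating enzyme of the anaphase-promoting complex, stood at 0, 0.122 and 8.40 CPM at 14 weeks, 0, 0 and 2.34 CPM at 20 weeks and 8.60, 17.1 and 21.8 CPM at 26 weeks. The 26-week libraries lay above all others, with 14-week replicate 6 just below the lowest of them. Against 20 weeks Ube2c rose by a log2 change of 4.89 ± 1.50 (SE), adjusted p = 0.0301, and the call was lost without 20-week replicate 4 or 6 or 26-week replicate 1, 5 or 6 (highest adjusted p 0.0596). Exons of Tnnc2 overlap Ube2c on the other strand.

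Birc5, survivin of the chromosomal passenger complex, stood at 0, 0.386 and 0.940 CPM at 14 weeks, 0, 0 and 1.10 CPM at 20 weeks and 3.77, 5.28 and 17.4 CPM at 26 weeks, with no overlap between the 26-week libraries and the rest. The log2 change was 4.81 ± 1.37 (SE) against 20 weeks, adjusted p = 0.0204, and 4.29 ± 1.34 (SE) against 14 weeks, adjusted p = 0.0433. The first call was lost without 26-week replicate 1 or 6 (highest adjusted p 0.0564), and the second without any 14-week library or 26-week replicate 1, 2, 3, 5 or 6 (highest adjusted p 0.106). Cenpa, the histone H3 variant of centromeres, was present in all 18 libraries at 9.09, 11.3 and 15.0 CPM at 14 weeks, 11.1, 15.5 and 22.2 CPM at 20 weeks and 16.6, 20.5 and 42.7 CPM at 26 weeks. Its 26-week libraries lay above all 14-week ones, with a log2 change of 1.06 ± 0.29 (SE), adjusted p = 0.0208, and the call was lost without 26-week replicate 5 (adjusted p = 0.0628).

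The other checkpoint and centromere genes were not called or not tested. Cdc20, the activator of the anaphase-promoting complex, had counts in 2, 4 and 6 libraries (47, 116 and 451 counts), and Cdca8, borealin, in 5, 4 and 6. Of the untested genes, Bub1b, a spindle checkpoint kinase, had 18, 1 and 144 counts, and 90 of the 144 were in 26-week replicate 6, with 2 libraries of that age at 0. Bub1 had counts in 0, 1 and 3 libraries, Cenpe in 1, 0 and 2 and Cenpf in 1, 1 and 4.

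Spindle and microtubule genes were the most mixed group, and their summed level was 30.8, 50.7 and 86.2 CPM at 14 weeks, 79.8, 94.6 and 136 CPM at 20 weeks and 67.9, 79.9 and 93.5 CPM at 26 weeks, with the highest median at 20 weeks. Kif23 (chromosome 9, 61915905 to 61946774, minus strand), a motor of the central spindle that works in cytokinesis, accounts for much of this sum, at 24.5, 35.1 and 61.0 CPM at 14 weeks, 61.4, 71.2 and 100.2 CPM at 20 weeks and 17.2, 28.5 and 50.9 CPM at 26 weeks. All 6 libraries at 20 weeks lay above all 12 others. Kif23 rose at 20 against 14 weeks by 0.96 ± 0.25 (SE) on the log2 scale, adjusted p = 0.0200, and was lower at 26 than at 20 weeks (-1.32 ± 0.26 (SE), adjusted p = 0.00178). No exon of another gene overlaps it in GENCODE M21, and both calls held with any 1 library left out.

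Kif11, the motor that pushes spindle poles apart, had 62, 4 and 274 counts in 3, 1 and 5 libraries. At 26 weeks it stood at 0, 3.44 and 8.50 CPM, and replicate 5 held no count, so the ages overlapped at 0. Its log2 change against 20 weeks was 5.92 ± 1.70 (SE), adjusted p = 0.0213. Stmn1, stathmin, which takes microtubules apart, stood at 0.192, 0.428 and 2.77 CPM at 14 weeks, 0.591, 1.22 and 1.53 CPM at 20 weeks and 4.66, 5.28 and 7.54 CPM at 26 weeks. Every 26-week library was above every younger one, with a log2 change of 2.69 ± 0.71 (SE) against 14 weeks, adjusted p = 0.0193, and 2.35 ± 0.70 (SE) against 20 weeks, adjusted p = 0.0266. The first call was lost without 14-week replicate 4 (adjusted p = 0.0501) and the second without 20-week replicate 4 or 5 or 26-week replicate 5 or 6 (highest adjusted p 0.0564).

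Tubb5, a beta tubulin, stood at 3.09, 9.76 and 13.7 CPM at 14 weeks, 9.94, 16.2 and 31.6 CPM at 20 weeks and 13.7, 24.8 and 31.8 CPM at 26 weeks. The 26-week libraries overlapped the 14-week ones only at 14-week replicate 2, whose level just passed the lowest 26-week library. The log2 change was 1.36 ± 0.39 (SE), adjusted p = 0.0312, lost without any 1 of 14-week replicates 1, 4 and 5 or 26-week replicates 1, 5 and 6 (highest adjusted p 0.0714). Nusap1, a microtubule-bundling protein, had 82, 17 and 455 counts in 2, 1 and 6 libraries, and its change at 26 against 20 weeks just missed the threshold (adjusted p = 0.0553). Prc1, which bundles the central spindle where Kif23 also acts, had 79, 171 and 154 counts and no call, and Kif20a had 138, 22 and 219. The untested Kif2c and Tpx2 were seen in 3 libraries each at 26 weeks.

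Of the 4 chromosome proteins of dividing cells, all tested, 3 were higher at 26 than at 20 weeks, where 8.03% of all tested genes were. Top2a (chromosome 11, 98992943 to 99024189, minus strand), the topoisomerase that untangles copied DNA, had 56 counts at 14 weeks in 3 libraries, 0 at 20 weeks and 325 at 26 weeks, where the libraries stood at 3.00, 6.30 and 7.30 CPM. The 26-week libraries lay above all others, and the level was at least 122-fold higher than at 20 weeks, adjusted p = 0.00303, for a gene that entered the test only through the 26-week libraries. Between 14 and 20 weeks Top2a was at least 18.6-fold lower, adjusted p = 0.0245. That fall rested on 14-week replicates 4 and 6, which held nearly all of its reads at that age, and was not called without replicate 6 (adjusted p = 0.0549) or with limma-voom (adjusted p = 0.285).

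H2afz (chromosome 3, 137864487 to 137866922, plus strand), the histone variant H2A.Z found at promoters in dividing and resting cells, stood at 105, 119.8 and 165 CPM at 14 weeks, 108, 120.2 and 186 CPM at 20 weeks and 177, 319.9 and 418 CPM at 26 weeks. All 26-week libraries lay above all 14-week ones, and only 20-week replicate 5 passed the lowest 26-week library. The log2 change was 1.26 ± 0.21 (SE) against 14 weeks, adjusted p = 0.00154, and 1.21 ± 0.21 (SE) against 20 weeks, adjusted p = 0.000738, and both calls held with any 1 library left out. The 6 libraries of each age held 8445, 8678 and 16618 reads of H2afz in the order of age.

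Hmgb2 (chromosome 8, 57511907 to 57515999, plus strand), a DNA-bending protein of the HMG box family, stood at 587, 611 and 684 CPM at 14 weeks, 422, 439 and 530.3 CPM at 20 weeks and 585, 823 and 965 CPM at 26 weeks. The 20-week libraries were below all others, and the 14- and 26-week ranges overlapped. At 26 against 20 weeks its log2 change was 0.77 ± 0.13 (SE), adjusted p = 0.000680, which held with any 1 library left out. At 20 against 14 weeks the change was -0.42 ± 0.13 (SE), adjusted p = 0.0446, and this call was lost in 13 of 18 fits that left out 1 library (highest adjusted p 0.103), being kept only without 20-week replicates 2 or 4 or 26-week replicates 3, 4 or 5. It was also lost with RLE (adjusted p = 0.0788) or upper quartile factors (adjusted p = 0.111). Mki67, the Ki-67 protein that coats mitotic chromosomes, stood at 0, 1.59 and 15.6 CPM at 14 weeks, 0, 1.26 and 12.2 CPM at 20 weeks and 0.938, 8.36 and 15.2 CPM at 26 weeks, with wide overlap and no call (adjusted p = 0.500 for 26 against 20 weeks).

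**Figure D4:**
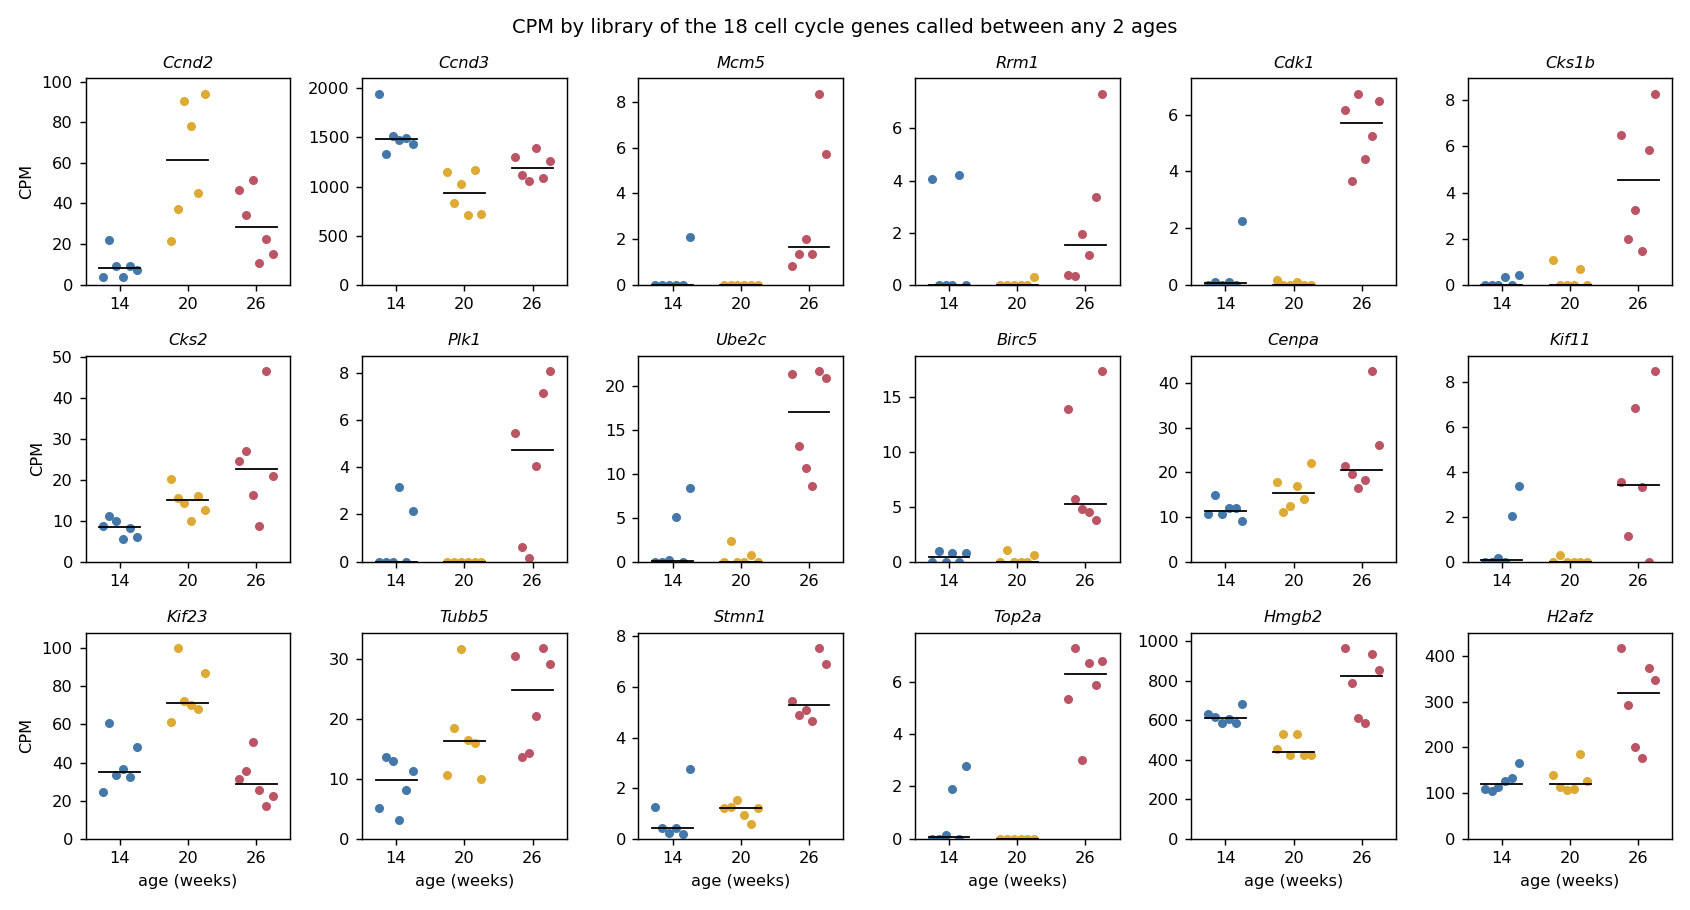
CPM in each library, by age in weeks, of the 18 members called between some pair of ages; points are libraries, bars are medians and each panel has its own linear axis from 0. Kif23 is highest at 20 weeks (61.4 to 100.2 CPM), Ccnd3 and Hmgb2 are lowest there, and Cdk1, Ube2c, Birc5, Stmn1 and Top2a have all 26-week points above the rest.

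Ranges that did not overlap can be read without a model. All 6 libraries at 26 weeks were above all 6 at 14 weeks for 8 of the 36 tested members (Birc5, Cdk1, Cenpa, Cks1b, H2afz, Stmn1, Top2a and Ube2c), where 2.9% of all tested genes were so placed, and 0 members lay wholly below (3.86%). Of these 8, 5 passed the filter only through the 26-week libraries. Among the 19 members that pass without them it held for 3 (Cenpa, H2afz and Stmn1), where 2.79% of all such genes lay wholly above and 4.21% wholly below. Against 20 weeks this held for 11 members (Birc5, Cdk1, Cks1b, Hmgb2, Mcm5, Nusap1, Plk1, Rrm1, Stmn1, Top2a and Ube2c), where 3.69% of all tested genes were, and 1 member, Kif23, lay wholly below (2.27%). Of these 11, 9 passed only through the 26-week libraries, and among the other 19 it held for Hmgb2 and Stmn1, where 3.62% of all such genes lay wholly above and 2.47% wholly below. At 20 against 14 weeks Kif23 lay wholly above (2.97%) and Ccnd3 and Hmgb2 wholly below (3.93%).

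Single libraries varied within an age. The 18 genes of the mitotic kinase and checkpoint groups summed to 20.9, 25.4 and 52.5 CPM at 14 weeks, 26.8, 49.7 and 52.0 CPM at 20 weeks, and 96.8, 125 and 202 CPM at 26 weeks. At 14 weeks replicate 6 was highest, with replicate 4 next at 40.7 CPM, and those 2 libraries also held 39 and 33 of the members. At 20 weeks replicate 3 was lowest, which also had the fewest genes of any library. Its median correlation with libraries of its own age, 0.756, was the lowest of the 18, and the 20-week ranges include it. At 26 weeks replicates 5 and 6 were highest and replicate 3 lowest, yet the lowest 26-week library was above every younger library.

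Markers of other cells also differed between the ages, and their association with the mitotic sum was not tested. T cell genes summed to medians of 136, 66.2 and 192 CPM in the order of age, and monocyte and macrophage genes to 895, 1100 and 1195 CPM. Their 26-week libraries ran from 100 to 382 CPM and from 758 to 1583 CPM, overlapping the younger ages. Against 20 weeks, 1 of 5 tested T cell genes (Cd3d) was higher at 26 weeks. Of 4 tested monocyte genes, 1 (Ly6c2) was higher and 3 were lower, where 8.03% and 7.98% of all tested genes were. The list of early granulocyte precursors, 11 of whose genes were in the table, summed to 64.1, 92.1 and 158 CPM at 14 weeks, 54.6, 67.4 and 113 CPM at 20 weeks and 122, 212 and 292 CPM at 26 weeks. Its largest part at 26 weeks was Fcnb, a ficolin of immature neutrophils, at 76.3, 137 and 218 CPM against 5.30, 15.2 and 65.6 CPM at 14 weeks and 10.8, 22.0 and 56.9 CPM at 20 weeks. Of the 6 tested genes of the list, Fcnb was the 1 called, higher at 26 than at 14 (adjusted p = 0.00389) and 20 weeks (adjusted p = 0.00533). The others were Ms4a3, a marker of granulocyte and monocyte progenitors with a count in 3, 3 and 6 libraries, Myb, Kit, Cebpa and Gfi1. The medians of Kit, a receptor of progenitor cells, were 21.1, 4.84 and 6.32 CPM in the order of age, those of Cebpa 32.5, 25.2 and 28.8 CPM and those of Gfi1 8.31, 3.46 and 7.11 CPM. At 26 against 14 and 20 weeks the log2 changes were 4.08 and 2.69 for Ms4a3 and 0.50 and 0.96 for Myb. For Kit they were -1.62 and 0.52, for Cebpa -0.19 and 0.12 and for Gfi1 -0.23 and 1.01. The granule genes that define promyelocytes were near 0: at 26 weeks Elane had 8 counts, Mpo 2 and Prtn3 12 over all 6 libraries. The part of T cells, monocytes and granulocyte precursors in the rise of the mitotic genes was not tested.

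Erythroid genes, 11 of which were in the table, summed to 1.37, 2.81 and 5.13 CPM at 14 weeks, 0, 0.790 and 12.2 CPM at 20 weeks and 1.93, 13.5 and 284 CPM at 26 weeks. The highest library was 26-week replicate 6, which also had the highest mitotic sum, and at that age Klf1, an erythroid transcription factor, had counts in 1 library. At 26 weeks replicate 5 was next highest in both sums (39.0 CPM erythroid and 189 CPM mitotic). Replicate 3 was lowest in both (1.93 and 96.8 CPM), the latter above the mitotic sum of every younger library. Among replicates 1, 2 and 4 the erythroid sum was highest in replicate 4 and the mitotic sum in replicate 1. Summed plasma cell genes, 9 of which were in the table, were 129, 158 and 186 CPM at 14 weeks, 349, 845 and 2075 CPM at 20 weeks and 184, 329 and 689 CPM at 26 weeks, with the highest median at 20 weeks. Sdc1 and Mzb1, which mark plasma cells, had counts in 2 and 4 of the 20-week libraries. All 3 tested genes of the list (Jchain, Igkc and Xbp1) were higher at 20 than at 14 weeks (adjusted p = 0.000651, 0.0194 and 0.000320). They were also higher at 26 than at 14 weeks (adjusted p = 0.00920, 0.0379 and 0.0306). Jchain and Xbp1 were lower at 26 than at 20 weeks. Of all tested genes, 4.93% and 5.45% were higher and 7.98% lower in those pairs. The part of erythroid and plasma cells was not tested.

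**Figure D5:**
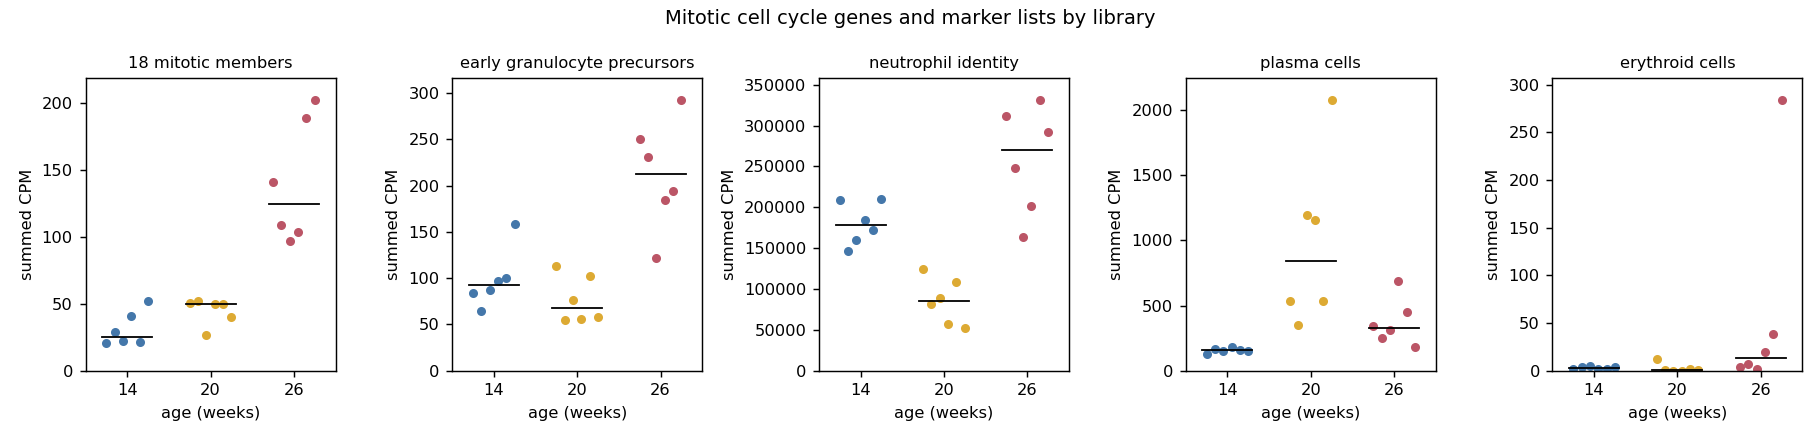
Summed CPM, by age in weeks, of the 18 mitotic members and of the marker lists of early granulocyte precursors, neutrophils, plasma cells and erythroid cells; points are libraries, bars are medians and each panel has its own linear axis from 0. The mitotic sum is highest at 26 weeks (96.8 to 202 CPM). The precursor list has its highest median there, but its 26-week libraries (122 to 292 CPM) overlap those at 14 weeks (64.1 to 158 CPM). Plasma cell genes have their highest median at 20 weeks, and 1 library at 26 weeks holds most erythroid counts.

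A wider list of 130 cell cycle genes outside the 47 was looked at for comparison, of which 85 were tested. At 20 against 14 weeks 4 were higher and 5 lower, at 26 against 14 weeks 5 and 4, and at 26 against 20 weeks 7 and 5, where 4.93% and 5.27%, 5.45% and 5.54%, and 8.03% and 7.98% of all tested genes passed in those directions. The counts of the wider list and of its parts are read against these shares. The median log2 change of the 85 was -0.40, 0.24 and 0.45 in that order, beside -0.02, 0.04 and 0.05 for all genes tested, without setting apart those that pass the filter only with the 26-week libraries. Calls and folds of single genes below were not split in that way either, so those higher at 26 weeks may be conditioned on that choice.

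Of 15 tested inhibitors and pocket proteins, which hold cells out of the cycle, 3 were higher and 1 lower at 20 against 14 weeks, 0 and 2 at 26 against 14 weeks, and 1 and 4 at 26 against 20 weeks. At 20 against 14 weeks 4.93% of all tested genes were higher and 5.27% lower, and at 26 against 20 weeks 8.03% and 7.98%. Btg1, an antiproliferative gene, stood at 565, 799 and 1447 CPM at 14 weeks, 1504, 2289 and 2835 CPM at 20 weeks and 607, 860.4 and 1871 CPM at 26 weeks, and rose at 20 weeks (1.33 ± 0.27 (SE), adjusted p = 0.00410) and fell again by 26 weeks (-1.08 ± 0.27 (SE), adjusted p = 0.0101). Btg2, its relative, moved in the same way (0.76 ± 0.16 (SE) and -0.69 ± 0.16 (SE)). Rbl2, a pocket protein that represses cell cycle genes in resting cells, stood at 60.6, 79.4 and 101 CPM at 14 weeks, 34.2, 69.7 and 108 CPM at 20 weeks and 15.3, 21.6 and 74.9 CPM at 26 weeks and was lower at 26 weeks than at 14 (-1.43 ± 0.35 (SE), adjusted p = 0.0122). Rbl2 was also called lower at 26 than at 20 weeks (log2 change -1.22), a call lost in 4 of 18 fits with 1 library left out. Ccng2, a cyclin tied to arrest, was also lower at 26 weeks than at 14 (-0.63 ± 0.16 (SE), adjusted p = 0.0166) and 20 weeks (-0.74 ± 0.16 (SE), adjusted p = 0.00414), the first call being lost without 26-week replicate 1, 2 or 6 (highest adjusted p 0.0648). Cdkn2d, an inhibitor of Cdk4 and Cdk6, was higher at 26 than at 20 weeks (0.68 ± 0.18 (SE), adjusted p = 0.0153), which was lost without 26-week replicate 1 (adjusted p = 0.0501). Cdkn1a, the p21 inhibitor, was higher at 20 than at 14 weeks (2.45 ± 0.78 (SE), adjusted p = 0.0499), a call lost in 14 of 18 fits with 1 library left out (highest adjusted p 0.174). The 1 gene called lower at 20 than at 14 weeks was Gadd45a (log2 change -0.63), a call lost without 14-week replicate 1 (adjusted p = 0.0680).

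Of 16 tested G1/S regulators and transcription factors, 3 were lower at 20 than at 14 weeks, and 2 were lower and 1 higher at 26 than at 14 weeks, where 5.54% and 5.45% of all tested genes were. The higher one was Ccnh (1.76 ± 0.53 (SE), adjusted p = 0.0366), a cyclin of the kinase that activates other cyclin-dependent kinases, and its call was lost in 8 of 18 fits with 1 library left out. E2f2, an activating E2F, stood at 129, 163 and 199.8 CPM at 14 weeks, 69.6, 107 and 143 CPM at 20 weeks and 68.0, 83.8 and 123 CPM at 26 weeks, and was lower at 26 than at 14 weeks (-0.91 ± 0.19 (SE), adjusted p = 0.00492). E2f2 was also called lower at 20 than at 14 weeks (log2 change -0.65), a call lost in 5 of 18 fits with 1 library left out. Tfdp1, the partner that E2F factors need to bind DNA, fell at 20 against 14 weeks (-1.03 ± 0.27 (SE), adjusted p = 0.0168). Lin54, the subunit that binds the CHR, was lower at 20 (-1.13 ± 0.36 (SE), adjusted p = 0.0482) and 26 weeks (-1.34 ± 0.36 (SE), adjusted p = 0.0201) than at 14, calls lost in 15 and 5 of 18 fits with 1 library left out. Foxm1, an activator of mitotic genes that was not tested, had 0 counts at 14 and 20 weeks and 60 at 26 weeks, in 5 libraries.

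Of 27 other tested replication genes, 2 were higher at 26 than at 20 weeks, where 8.03% of all tested genes were: Orc6 of the origin recognition complex (1.67 ± 0.53 (SE), adjusted p = 0.0352) and Chaf1a of the factor that loads histones on new DNA, which had 35, 1 and 91 counts (adjusted p = 0.0184). With limma-voom the Chaf1a call was lost (adjusted p = 0.0508). Rpa2, which coats single-stranded DNA, was lower (-2.27 ± 0.73 (SE), adjusted p = 0.0393). The Orc6 and Rpa2 calls were lost in 7 and 5 of 18 fits with 1 library left out.

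Of 27 other tested mitotic genes, 1 was higher and 1 lower at 20 against 14 weeks, 4 were higher at 26 than at 14 weeks, and 4 were higher at 26 than at 20 weeks. All tested genes were higher in 4.93%, 5.45% and 8.03% and lower in 5.27% at 20 against 14 weeks. Pttg1, securin, which keeps sister chromatids together, stood at 10.3, 21.3 and 28.4 CPM at 14 weeks, 63.6, 80.1 and 111 CPM at 20 weeks and 30.2, 75.3 and 125 CPM at 26 weeks and rose at 20 (2.04 ± 0.31 (SE), adjusted p = 0.000615) and 26 weeks (1.89 ± 0.31 (SE), adjusted p = 0.00155) against 14 weeks, so it was already higher at 20 weeks. Racgap1, which forms the centralspindlin complex with Kif23, had 92, 1 and 263 counts, and was called lower at 20 than at 14 weeks (adjusted p = 0.0187) and higher at 26 than at 20 weeks (adjusted p = 0.00398). The first of these calls was lost with limma-voom (adjusted p = 0.229). Kif22, a chromosome-moving motor, had 62, 0 and 224 counts and was at least 84.2-fold higher at 26 than at 20 weeks, adjusted p = 0.0156. Cep55, which acts in abscission, had 0 counts at 14 weeks and 143 at 26 weeks, at least 53.8-fold higher, adjusted p = 0.0309, a call lost in 8 of 18 fits with 1 library left out. The other called genes were less stable. Ckap2l (log2 change 4.93) and Anapc11 (1.13) at 26 against 14 weeks were lost in 10 and 6 of 18 such fits. Smc4 (1.74) and Spc25 (4.80) at 26 against 20 weeks were lost in 16 and 11. Whether Racgap1, Kif22, Cep55, Ckap2l, Anapc11, Smc4 and Spc25 passed the filter only through the 26-week libraries was not looked at.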

How the data were processed

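The authors deposited whole-number counts of reads for each gene symbol in 18 libraries, not normalized. Their software, per the submitters' processing notes, included STAR 2.4.2a and HTSeq 0.6.1 with the build GRCm38.p4, as well as DESeq2 1.12.3, DESeq and Trimmomatic 0.32, and the annotation and strand setting used for counting were not stated in what was read here. Per the labels' protocols, libraries came from 1 ng of cDNA made from polyA RNA, with single-end reads.

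The 47 members, their roles and all other lists were chosen with earlier results of these data known. Groups were taken from the sample titles. Nothing in the labels says that a shared replicate number pairs libraries or that each came from its own animal, so p-values measure only the spread between these libraries, which differed by more than counting error (mean chi-square per gene from 26.3 to 184 within an age). The lowest total of a gene over the 18 libraries was 2.

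All 18 libraries were fitted at once with edgeR 4.0.16 in R 4.3.3 (filterByExpr on age, normalization by TMM, a robust quasi-likelihood F test, and no term besides age). Calls used a Benjamini-Hochberg adjusted p under 0.05 over 10104 genes. The procedure was tested on simulated counts drawn around the overall mean of each gene that had passed the filter. That test does not cover the filter's choice of genes or genes at 0 throughout an age. CPM is the count over the TMM-scaled library total, and folds against an age at 0 use 3 counts over its 6 libraries. Those bounds and the exact 95% intervals cover counting error only. Each called member is given with its lowest, median and highest library, members not called by counts or ranges, and of the other cell cycle genes up to 4 called genes per list and pair were eligible by smallest p. Promoters and their motif matches use RefSeq start sites on GRCm38.p6, positions and exon lengths use GENCODE M21. Alternatives were RLE and upper quartile factors, DESeq2 1.42.0, limma-voom (limma 3.58.1), a block for the replicate number, no filter, at least 10 CPM in 6 libraries, a fit of the libraries of just 2 ages, each library left out in turn and, chosen after seeing the data, each library brought down to the smallest total. Some listed marker and cell cycle genes are not in the table and were not analysed here.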

Additional observations from a re-analysis of the deposited data

Results flagged for a closer look

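In 13 of 108 groups of 6 libraries (36 tested members at 3 ages), the highest or lowest library stood apart from the other 5 by Dixon's test at the 95% level, where chance alone flags about 1 in 20 groups of continuous values. That rate does not hold for groups with many zeros, where any library with a read stands apart, as for Mcm5, Rrm1, Kif11 and Nusap1 below. The same libraries recur. At 14 weeks replicate 6 was far above the other 5 for Mcm5 (2.08 CPM, the others 0), Rrm2 (7.62 CPM, the others 0 to 0.427) and Cdk1 (2.25 CPM, the others up to 0.0858), and it also held the most members of its age. At 14 weeks replicate 1 was highest for Ccnd3 (1946 CPM, the others 1327 to 1513) and lowest for Pcna (0 CPM, the others 3.43 to 7.25), and replicate 4 was lowest for Mcm4 (0.0858 CPM, the others 4.61 to 19.8).

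At 20 weeks single libraries held all reads of a gene: replicate 6 for Rrm1 (0.301 CPM), replicate 2 for Kif11 (0.293 CPM) and replicate 1 for Nusap1 (1.40 CPM), with 0 in the other 5. Replicate 3 was at 0 CPM for Ccnb2, where the others stood at 1.61 to 6.16 CPM. At 26 weeks replicate 3, the most deeply read library, was lowest for Ccnb2 (2.04 CPM, the others 10.8 to 24.3) and Top2a (3.00 CPM, the others 5.33 to 7.30), and replicate 1 was at 0 CPM for Ccnb1 (the others 1.89 to 6.32).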

How the results depend on the processing

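No named change turned its direction under any alternative, and RLE and upper quartile factors kept the counts of called members within 1.5 times. The other settings moved these counts, and the cause was not tested except where fewer genes were tested. DESeq2 called 19 members at 26 against 20 weeks. With limma-voom 24 members and 23 other cell cycle genes were called at 26 against 14 weeks, and 27 members for any change with age. Without a filter 5 members were called at 26 against 14 weeks. With at least 10 CPM in 6 libraries, which left 11 members to test, 3 members were called at 20 against 14 weeks, 5 members and 7 other genes at 26 against 20 weeks, and 8 members for any change. With only the 2 ages compared, 14 other genes were called at 26 against 14 weeks and 5 at 26 against 20 weeks. Correlations of same-numbered libraries ran from -0.053 to 0.136 and did not exceed 0.1 in every pair, so the libraries were treated as sharing only a number. In the 3 pairs of ages 1, 6 and 1 of 12 libraries were closest to their own number. The 6, between 14 and 26 weeks, may hint at a pairing that the labels do not give, which was not tested. These are the numbers of the titles, and the column names of the counts carry other numbers. With the replicate number as a block, the called members were 3, 9 and 12 in the 3 pairs of ages and 16 for any change, and the calls of Hmgb2 and Top2a at 20 against 14 weeks, Cenpa and Cks1b at 26 against 14 weeks and Kif11 at 26 against 20 weeks (adjusted p = 0.0502) were not made in that fit. Without a filter, which tests more genes, the edgeR calls of Hmgb2 at 20 against 14 weeks, Birc5, Cks1b and Stmn1 at 26 against 14 weeks, and Rrm1 and Stmn1 at 26 against 20 weeks were lost (adjusted p from 0.0548 to 0.0805).

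Leaving out 1 library at a time gave 3 to 5 called members at 20 against 14 weeks (3 without 14-week replicate 6), 3 to 9 at 26 against 14 weeks (3 without 14-week replicate 4, 4 without 14-week replicates 1 or 5 or 26-week replicates 1 or 5, and 5 without 14-week replicate 3 or 26-week replicates 2 or 6), 8 to 15 at 26 against 20 weeks (8 without 26-week replicate 6, 15 without 20-week replicate 1) and 13 to 18 for any change. The other cell cycle genes called ran from 5 to 14, 3 to 12 and 7 to 19 in the 3 pairs. At 20 weeks Top2a, Plk1, Mcm5, Cdk1, Rrm1 and Kif11 had 0 to 4 counts over 6 libraries, so the size of their change against that age is poorly set.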
